A study of Mus musculus with 75 samples.

Results

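The 48 genes described here encode proteins that copy DNA and make its building blocks. They were chosen by name from a list of such genes, and were matched by gene symbol. All 48 were found among the 55536 genes of the count table. They were grouped by role. The helicase group held 12 genes: the replicative helicase (Mcm2 to Mcm7, Gins1 to Gins4, Cdc45) and its cofactor Mcm10. Origin licensing had 5 (Orc1, Orc6, Cdc6, Cdt1, Gmnn), and 5 drive entry into S phase (Ccne1, Ccne2, E2f1, Cdc7, Dbf4). The sliding clamp and its loader had 6 (Pcna, Rfc1 to Rfc5). The polymerases and primase had 9 (Pola1, Pola2, Prim1, Prim2, Pold1 to Pold3, Pole, Pole2). Single-strand binding and Okazaki fragment joining had 4 (Rpa1, Rpa2, Fen1, Lig1). Nucleotide supply had 5 (Rrm1, Rrm2, Tyms, Tk1, Dut), and replication-coupled chromatin assembly had 2 (Chaf1a, Chaf1b).

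As background, a cell that is about to divide first licenses its origins. The origin recognition complex, Cdc6 and Cdt1 load rings of Mcm2 to Mcm7 onto DNA, while geminin (Gmnn) blocks Cdt1 outside that window. Cyclin E and the Cdc7-Dbf4 kinase then fire the origins, Cdc45 and the GINS proteins complete the helicase, primase and the polymerases copy the strands behind it with the Pcna clamp, and ribonucleotide reductase (Rrm1 and Rrm2) makes the deoxynucleotides. Transcription of many of these genes is driven by E2F factors at the border of G1 and S phase. Most hepatocytes of an adult liver rest outside the cell cycle, whereas the liver of a young mouse still grows.

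Bulk RNA was sequenced from livers of C57Bl/6 mice, all labelled male, in 75 libraries. Dams of the exposed mice drank the organotin tributyltin (TBT) until weaning, at 0.5 mg/kg/day (3.07 µM in the water), and those of the controls drank vehicle. At 3 weeks there were 8 vehicle libraries of 7 mice and 8 TBT livers. The 5-month groups held 8 livers of vehicle mice and, of TBT mice, 16 classed low-risk and 10 classed high-risk, and at 10 months 6 vehicle livers, 5 low-risk TBT livers, 6 libraries of uninvolved liver from high-risk TBT mice and 7 tumors. How the 5-month livers were given their risk class, and whether expression was used for it, is not in the labels, nor how tumors were separated from the tissue around them. A further 10-month library, labelled vehicle with a tumor, entered no comparison. Batch 2 of sequencing held 1 vehicle, 10 low-risk and 7 high-risk livers of 5 months, and batch 1 all others.

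Total counts ran from 2.83 to 45.4 M per library (M stands for 1000000), and at 10 months from 34.8 to 44.6 M in uninvolved livers, 22.5 to 27.9 M in tumors, 26.4 to 33.5 M in low-risk livers and 26.2 to 31.0 M in vehicles. Levels are given as CPM, counts per 1000000 of the library, after TMM scaling over all samples. The libraries of uninvolved livers 3 and 6 had far closer counts than any other pair of their group (chi-square per degree of freedom 3.48, against 39.3 for the next pair), though still above sampling noise, and were summed, which left 5 samples. The library labelled TBT 4 of 3 weeks had Xist at 348 CPM, with 4 Y-linked genes summing to 7.08 CPM, and so went against its label as male. Besides these, 6 libraries were unusual in total (less than 5 M), in genes detected (more than 35000) or in mitochondrial share (more than 10%): 1 of the 3-week vehicle libraries, 5-month vehicle 9, low-risk 16, high-risk 10 and 15, and the vehicle library labelled with a tumor. In all groups 7 hepatocyte marker genes were abundant, with 140200 to 203100 CPM together in 3-week vehicles, 111700 to 136800 in 10-month vehicles and 66520 to 111000 in tumors. These are bulk livers, so more cells in S phase and more transcript per cell cannot be told apart.

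Promoter sequences are shown first because 14 of the 48 genes carry letters of an E2F site near their start. RefSeq windows of 300 bases on GRCm38.p6, from 250 bases before the start site to 50 after it, were found for 39 of the 48 genes. Windows were searched on both strands for TTTGGCGC, TTTCCCGC, TTTCGCGC and TTTGCCGC, which can overlap each other on opposite strands. A match was present in 14 of 39 genes (35.9%) against 704 of 27025 genes with a window (2.61%). The letters CCAAT were in 53.8% of the 39 genes against 41.1% of all genes, and the cell cycle element TTTGAA in 17.9% against 20.2%, both searched on both strands. The 14 genes were Mcm3, Mcm5, Mcm6, Mcm7, Gins3, Orc1, Cdc6, Cdt1, Rfc3, Pola1, Pold1, Pold3, Pole2 and Lig1. A match is a description of letters and not a bound site. The 250 bases before the start site are printed for 3 genes with a match there and no annotated exon in that stretch, Mcm5 (chr8:75109259-75109508 on the plus strand), Mcm6 (chr1:128359706-128359955 on the minus strand) and Pola1 (chrX:93632156-93632405 on the minus strand), and for Mcm10 (chr2:5012792-5013041 on the minus strand), whose level went the other way. This choice was made after the values were seen. It replaced a fixed rule, the gene of each role with the highest mean CPM if it had a match, which selected only Pold3. Each is written 5′ to 3′ along its gene, with the matched letters in capitals.
Mcm5: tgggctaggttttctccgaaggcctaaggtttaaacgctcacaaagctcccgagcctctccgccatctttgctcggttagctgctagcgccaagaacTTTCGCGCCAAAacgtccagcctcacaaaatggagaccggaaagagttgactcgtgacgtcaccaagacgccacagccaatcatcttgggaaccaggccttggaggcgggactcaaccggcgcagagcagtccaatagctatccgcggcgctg
Mcm6: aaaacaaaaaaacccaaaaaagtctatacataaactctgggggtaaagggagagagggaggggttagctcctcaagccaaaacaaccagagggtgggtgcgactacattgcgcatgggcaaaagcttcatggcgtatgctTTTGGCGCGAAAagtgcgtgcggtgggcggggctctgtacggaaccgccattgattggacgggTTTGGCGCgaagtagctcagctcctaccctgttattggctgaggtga
Pola1: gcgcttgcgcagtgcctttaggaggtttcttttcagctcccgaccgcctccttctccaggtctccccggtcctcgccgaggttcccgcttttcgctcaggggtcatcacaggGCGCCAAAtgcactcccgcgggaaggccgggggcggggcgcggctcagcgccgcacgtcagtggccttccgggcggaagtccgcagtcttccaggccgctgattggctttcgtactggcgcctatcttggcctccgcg
Mcm10: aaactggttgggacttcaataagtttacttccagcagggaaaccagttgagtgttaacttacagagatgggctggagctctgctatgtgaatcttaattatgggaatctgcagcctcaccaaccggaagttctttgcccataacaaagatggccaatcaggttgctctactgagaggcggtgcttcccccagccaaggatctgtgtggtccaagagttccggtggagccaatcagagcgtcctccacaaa
In Mcm5, a pair of matches on opposite strands overlapped, beginning 153 and 149 bases before the start. Mcm6 held a like pair at 110 and 106 bases and a further match at 47 bases. Pola1 held its match at 138 bases. The 250 bases of Mcm10 held none of the E2F letters.

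Per length of exon, the clamp gene Pcna was the most abundant of the 48 over all samples at 10.8 CPM per kb. It was followed by Gins4, a subunit of the GINS complex, at 10.1, by Rpa1, the large subunit of the single-strand binding protein, at 5.77, and by Mcm10, a helicase cofactor, at 5.59. The least abundant were Orc1 at 0.138, the kinase gene Cdc7 at 0.152 and Cdc6 at 0.203 CPM per kb, so the values of these 3 rest on few reads. The order differed between ages. Mcm6 stood at rank 5 of 48 in 3-week vehicles (8.03 CPM per kb) and at rank 23 in 10-month vehicles (1.04), whereas Mcm10 stood at rank 27 (1.92) and then at rank 3 (8.55). In tumors Mcm6 stood at rank 9 with 3.59 CPM per kb.

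**Figure D1:**
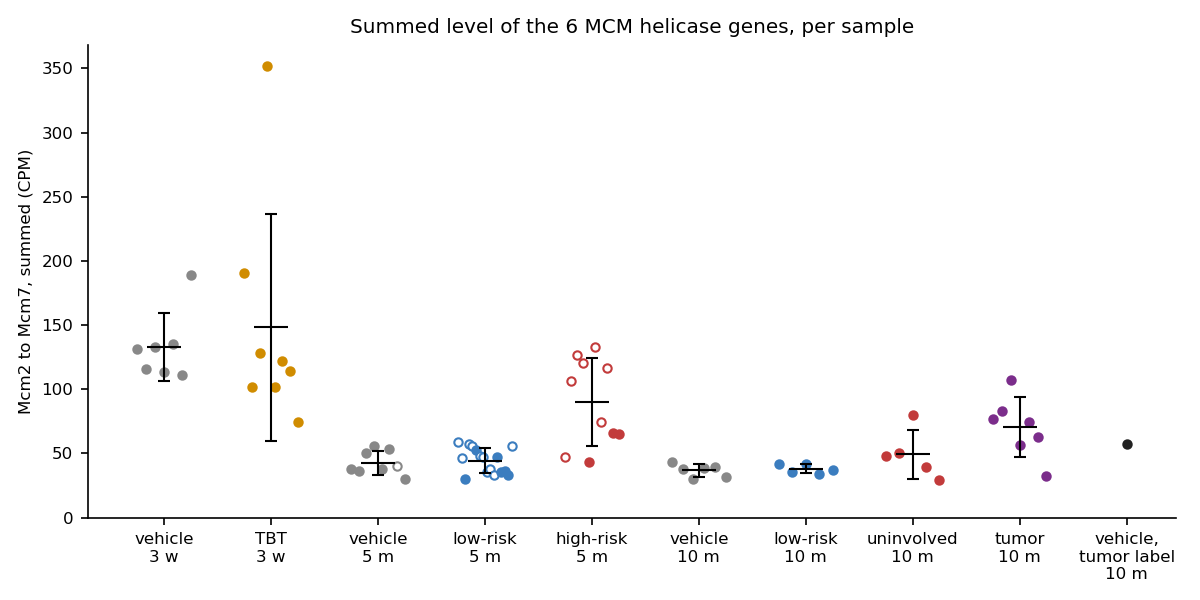
Summed CPM of Mcm2 to Mcm7 in every sample (y axis) by group (x axis; w, weeks; m, months), with the mean and SD over samples as bars and open circles for sequencing batch 2. Levels were 111 to 189 CPM in 3-week vehicles and 29.8 to 43.5 in 10-month vehicles, and the high-risk livers of 5 months spread from 43.7 to 133.

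How these genes change as the unexposed liver matures was asked first, in vehicle livers of batch 1 at 3 weeks (n = 7) and 5 months (n = 7). At 5 months 36 of 48 genes were lower and 1, Mcm10, was higher, with 11 not called. A gene was called when its Benjamini-Hochberg adjusted p in edgeR's quasi-likelihood test, taken over all genes tested, was under 0.05. Over all 14962 genes tested, 12.3% were lower and 11.9% higher. The median log2 fold change of the 48 was -1.13, beside 0.02 over all genes. Summed CPM of Mcm2 to Mcm7 had a lowest, median and highest value of 111, 132 and 189 at 3 weeks and 30.2, 39.3 and 56.1 over the 8 vehicles of 5 months, so the ages did not overlap.

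By role, 9 of 12 helicase genes, 4 of 5 licensing genes, 3 of 5 S phase entry genes, 3 of 6 clamp genes, 6 of 9 polymerase genes, and all 4 Okazaki, 5 nucleotide and 2 chromatin assembly genes fell. The helicase subunit Mcm6 (chromosome 1, 128331590 to 128359664) had 31.3, 34.5 and 51.5 CPM as lowest, median and highest values at 3 weeks and 3.09, 5.15 and 10.9 at 5 months. Its log2 fold change was -2.56 (SE 0.23, adjusted p 5.85e-08), with no overlap. The largest fall was that of the loading factor Cdc6 (chromosome 11, 98907801 to 98923940), -3.03 (SE 0.72, adjusted p 0.00355), whose level was 1.22, 2.27 and 6.58 CPM at 3 weeks and 0.0963, 0.161 and 3.44 at 5 months. Its ranges overlapped through 5-month vehicle 9, the library with 2.83 M counts. Rrm2, the small subunit of ribonucleotide reductase, fell by 2.06 on the log2 scale, from 26.4 ± 6.73 to 6.14 ± 2.82 CPM (SD, n = 7 and 8), and Pole, the catalytic subunit of the leading-strand polymerase, fell by 2.23. The clamp gene Pcna (chromosome 2, 132249162 to 132253314) fell by 0.81, less than Mcm6, from 37.2 ± 5.06 to 20.9 ± 4.27 CPM.

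Mcm10 (chromosome 2, 4989714 to 5012791) had 10.5, 14.6 and 19.4 CPM as lowest, median and highest values at 3 weeks and 12.7, 55 and 82.3 at 5 months. All 3-week samples were low, and the 5-month samples spread widely and overlapped them only through vehicle 9, the shallowest library. Its log2 fold change was 1.71 (SE 0.29, adjusted p 0.000176). The 11 genes without a call included Gins4 (0.09) and the clamp loader genes Rfc1 (-0.02), Rfc2 (0.03) and Rfc3 (-0.27). Counts in the fixed lists around this set were 1 higher and 14 lower of 33 tested other replication genes (median log2 fold change -0.53); 1 higher and 5 lower of 25 tested other nucleotide genes (median log2 fold change -0.22); 2 higher and 12 lower of 28 tested cell cycle control genes (median log2 fold change -0.31); 0 higher and 16 lower of 16 tested mitosis genes (median log2 fold change -2.52). The hemimethylated DNA reader Uhrf1 fell most of the other replication genes (-3.15) and the proliferation antigen Mki67 most of the mitosis genes (-3.31).

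Markers of other cells differed between these ages too: 7 of 8 erythroid, 5 of 5 endothelial, 5 of 7 stellate and fibroblast and 4 of 6 macrophage markers were lower at 5 months. Erythroid markers summed to 451 to 1809 CPM at 3 weeks and 102 to 768 at 5 months, and stellate markers to 722 to 1233 and 83.2 to 566. Their part in the result was not tested. Without the libraries of unusual depth, gene number or mitochondrial share, 41 of the 48 genes were lower and 1 higher.

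From 5 to 10 months (7 against 6 vehicles of batch 1) only 4 of 48 genes passed the test, 2 in each direction, beside 6.68% of all genes higher and 7.41% lower. Tk1, the salvage enzyme thymidine kinase (chromosome 11, 117815526 to 117826092), had 8.37, 10.9 and 16.1 CPM as lowest, median and highest values at 5 months and 16, 18.6 and 35.6 at 10 months. It rose by 1.01 (SE 0.16, adjusted p 0.000724), without overlap among the batch 1 samples. The clamp loader gene Rfc5 rose by 0.42 (SE 0.12, adjusted p 0.0191). Gins2 fell by 1.86 (SE 0.52, adjusted p 0.0213) and Ccne1, a cyclin E gene, by 1.65 (SE 0.39, adjusted p 0.00949). The call of Gins2 was lost without 5-month vehicle 4 or 10-month vehicle 4, and that of Rfc5 without 10-month vehicle 1, 2 or 6. The count was 7 without 5-month vehicle 5 and also 7 without the shallow 5-month vehicle 9.

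Whether maternal TBT changed these genes at weaning was addressed by 8 TBT and 7 vehicle samples of 3 weeks. None of the 48 genes passed the test (edgeR quasi-likelihood, Benjamini-Hochberg), beside 0% of all 14050 genes tested, of which 474 had an unadjusted p under 0.05. DESeq2 also called 0 of the 48 and 0 of all genes, and 1 gene of the set, Ccne2, had an unadjusted p under 0.05. The median log2 fold change of the set was 0.09, with single genes from -0.53 for Gins3 to 0.39 for Ccne1. The spread among TBT livers was wide. Summed CPM of Mcm2 to Mcm7 had lowest, median and highest values of 74.5, 118 and 352, against 111, 132 and 189 in vehicles. The library labelled TBT 4 was the highest of its group for 46 of the 48 genes and TBT 8 the lowest for 35. Without TBT 4, which went against its sex label, the median was -0.14 and again none of the 48 genes was called, with 2 at an unadjusted p under 0.05.

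The main contrast at 5 months, 10 high-risk against 16 low-risk TBT livers with batch as a covariate, found 20 of 45 tested genes higher and 3 lower in high-risk livers (edgeR quasi-likelihood, Benjamini-Hochberg). Over all 14773 genes tested, 20.3% were higher and 18.5% lower. The higher share of the set was thus above that of all genes (44.4%) and the lower share below it (6.67%). The median of the set was 0.50 on the log2 scale, beside -0.01 over all genes. Orc1, Cdc7 and Fen1 did not pass the filter on low counts at this age.

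Of the helicase genes, 8 of 12 rose and 1 fell. Mcm6 had 3.8, 6.65 and 13 CPM as lowest, median and highest values in low-risk livers and 9.61, 21.4 and 42.2 in high-risk livers. The high-risk livers were mostly higher, with overlap at their low end, and the log2 fold change was 1.70 (SE 0.23, adjusted p 6.9e-07). Mcm5 rose by 1.89 (SE 0.26, adjusted p 9.86e-07), Mcm2 by 1.31, Mcm3 by 0.71, Mcm4 by 0.55 and Mcm7 by 0.31, so all 6 subunits of the ring passed, with changes of unequal size. Gins2, a GINS subunit, rose by 2.11 (SE 0.43, adjusted p 0.000178), from 0.517 ± 0.316 to 2.24 ± 1.32 CPM (SD, n = 16 and 10), and Cdc45 by 0.87. This is a median of 6 reads of Gins2 against 30.5, and Gins2 was not tested in a fit of low-risk livers and vehicles alone. It thus passed the filter on low counts through the high-risk livers, where it is high, and could be called only as higher. For Gins2, 67.3% of the exonic bases lie opposite exons of Gse1, and where counting ignores strand such reads cannot be told apart. Gins1 (-0.28), Gins3 (0.55) and Gins4 (-0.17) did not pass.

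Mcm10 fell, by 1.43 on the log2 scale (SE 0.30, adjusted p 0.000345). Its lowest, median and highest values were 27.6, 67.3 and 108 CPM in low-risk livers and 8.16, 22 and 49.1 in high-risk livers. This was the lowest log2 fold change of the set. Its exons overlap those of no other annotated gene. In each of the 5 comparisons in which Mcm10 passed, it went the opposite way to every ring subunit that passed.

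Among licensing genes Cdc6 rose, with the largest log2 fold change of the set at 2.40 (SE 0.61, adjusted p 0.00214). Cdc6 had 0, 0.119 and 1.41 CPM as lowest, median and highest values in low-risk livers and 0.0763, 1.5 and 4.03 in high-risk livers. This is a median of 2 reads against 27. In a fit of these groups alone, without the vehicles, Cdc6 did not pass the filter on low counts and was not tested. Nor was it tested in a fit of low-risk livers and vehicles alone. Cdc6 thus passed the filter through the high-risk livers, where it is high, and could be called only as higher. Gmnn was 4.34 ± 1.73 CPM against 4.51 ± 2.19 and did not pass (0.05), nor did Cdt1 (0.08) or Orc6 (-0.04). Of the S phase entry genes Dbf4, the activator of Cdc7 kinase (chromosome 5, 8396973 to 8422716), rose from 3.5 ± 1.16 to 8.88 ± 2.32 CPM, a log2 fold change of 1.36 (SE 0.24, adjusted p 2.5e-05). E2f1 (0.53), Ccne1 (0.22) and Ccne2 (0.60) did not pass.

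None of the 6 clamp genes passed, and their median was 0.06. Pcna had 15.1, 20.1 and 33 CPM as lowest, median and highest values in low-risk livers and 12.4, 23.5 and 36.1 in high-risk livers, which overlapped widely (0.29, SE 0.13). Rfc1, the largest subunit of the clamp loader, was 30.7 ± 7.5 against 29.1 ± 3.79 CPM. Of the polymerase genes Pole rose by 1.53 (SE 0.26, adjusted p 2.39e-05), the primase gene Prim1 by 0.99, Pola1 by 0.66 and Pold3, a subunit of the lagging-strand polymerase, by 0.26 (from 10.2 ± 1.5 to 12.1 ± 1.69 CPM). Pold2, which encodes another subunit of the same enzyme, fell from 10.2 ± 1.76 to 6.91 ± 2.34 CPM, by 0.56 on the log2 scale.

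Lig1, the ligase that seals Okazaki fragments, rose by 1.06 (SE 0.24, adjusted p 0.000661), while Rpa1 (0.12, 28.6 ± 5.34 against 31.4 ± 8.06 CPM) and Rpa2 (0.27) did not pass. In nucleotide supply Rrm1, the large subunit of ribonucleotide reductase (chromosome 7, 102441695 to 102469771), had 9.72, 13.8 and 17.3 CPM as lowest, median and highest values in low-risk livers and 18.3, 25 and 38.8 in high-risk livers. Rrm1 was the single called gene of the set without overlap between the groups, with a log2 fold change of 0.94 (SE 0.13, adjusted p 7.24e-07). The share of all genes without overlap is not given here, so this count has no background beside it. Rrm2 rose by 1.31 and Tyms, thymidylate synthase, by 0.50. The salvage gene Tk1 fell instead, from 19.6 ± 8.08 to 13.5 ± 4.39 CPM (-0.58, SE 0.19, adjusted p 0.0136), and Dut, which clears dUTP, did not pass (0.28). Both chromatin assembly genes rose, Chaf1b from 1.15 ± 0.719 to 3.75 ± 1.15 CPM (1.64, SE 0.32, adjusted p 9.55e-05) and Chaf1a by 1.32, with 52.5% of the exonic bases of Chaf1a opposite exons of Ubxn6.

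The batches differed in their counts. Within batch 2 (7 against 10) 19 genes were higher and 2 lower, and within batch 1 (3 against 6) 1 gene passed, Dbf4, with a median of 0.25 over the set. Shares of all genes within each batch are not given here, so these counts have no background beside them. Mcm6 had a log2 fold change of 1.17 (SE 0.37) within batch 1 and 1.92 (SE 0.27) within batch 2. Mcm10 had -1.31 and -1.49, and Rrm1 0.60 and 1.08. Summed Mcm2 to Mcm7 was 58.2 ± 12.6 CPM (SD, n = 3) in high-risk livers of batch 1 and 104 ± 31.3 (n = 7) in those of batch 2, and 39.3 ± 8.79 (n = 6) and 47.6 ± 9.48 (n = 10) in low-risk livers. High-risk livers 1 and 15 held the lowest value of the group for 13 and 24 of the 48 genes, and liver 10 the highest for 21. Without livers 10 and 15, low-risk liver 16 and vehicle 9, which also enters this fit, the counts were 21 higher and 3 lower.

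**Figure D2:**
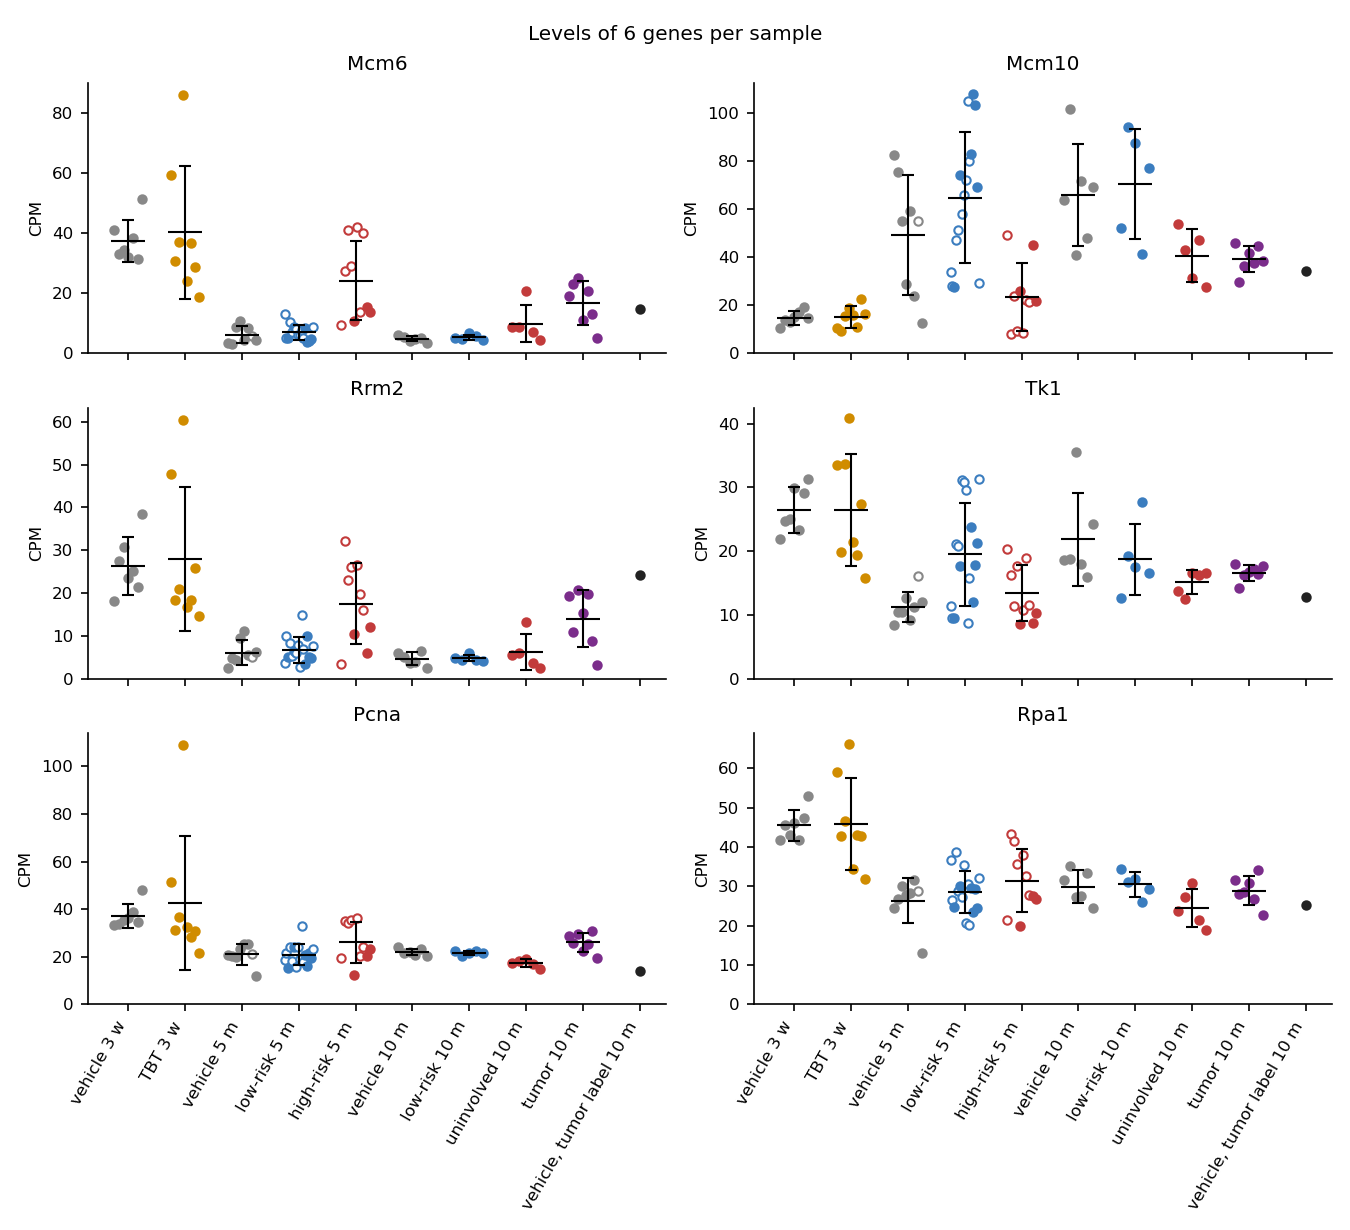
CPM of Mcm6, Mcm10, Rrm2, Tk1, Pcna and Rpa1 (y axes) in every sample by group (x axis), with the mean and SD as bars and open circles for sequencing batch 2. Mcm6 and Rrm2 were lower in 10-month vehicles (3.64 to 6.08 and 2.62 to 6.44 CPM) than in 3-week vehicles (31.3 to 51.5 and 18.1 to 38.5), and Mcm10 was higher (40.9 to 101 against 10.5 to 19.4).

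Other cell markers moved with the same contrast. Of 7 stellate and fibroblast markers 6 rose and 1 fell in high-risk livers, and they summed to 466 to 1215 CPM against 195 to 397 in low-risk livers. Of 4 cholangiocyte markers 3 were higher (11 to 50.1 against 6.88 to 188 CPM), and of 4 tested T and NK cell markers 3 were higher and 1 lower (3.57 to 10.4 against 0.845 to 9.18 CPM over 6 markers). Of 7 hepatocyte markers 4 were lower and of 5 endothelial markers 3 were lower and 1 higher. No marker was at 0 throughout either group, and the part of these cells in the result was not tested.

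Counts in the fixed lists around the set were 12 higher and 6 lower of 32 tested other replication genes (median log2 fold change 0.17); 5 higher and 6 lower of 25 tested other nucleotide genes (median log2 fold change -0.15); 7 higher and 2 lower of 29 tested cell cycle control genes (median log2 fold change 0.22); 16 higher and 0 lower of 16 tested mitosis genes (median log2 fold change 3.16). The mitosis genes thus had the largest median of these lists, led by Cdc20, a co-activator of the anaphase-promoting complex (3.91). The topoisomerase gene Top2a led the other replication genes (2.79) and cyclin A2 (Ccna2) the control genes (3.14), while E2f8, a repressor of the E2F family, was the lowest of the latter (-1.51). The nucleoside transporter gene Slc29a1 fell most in the other nucleotide list (-1.16).

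**Figure D3:**
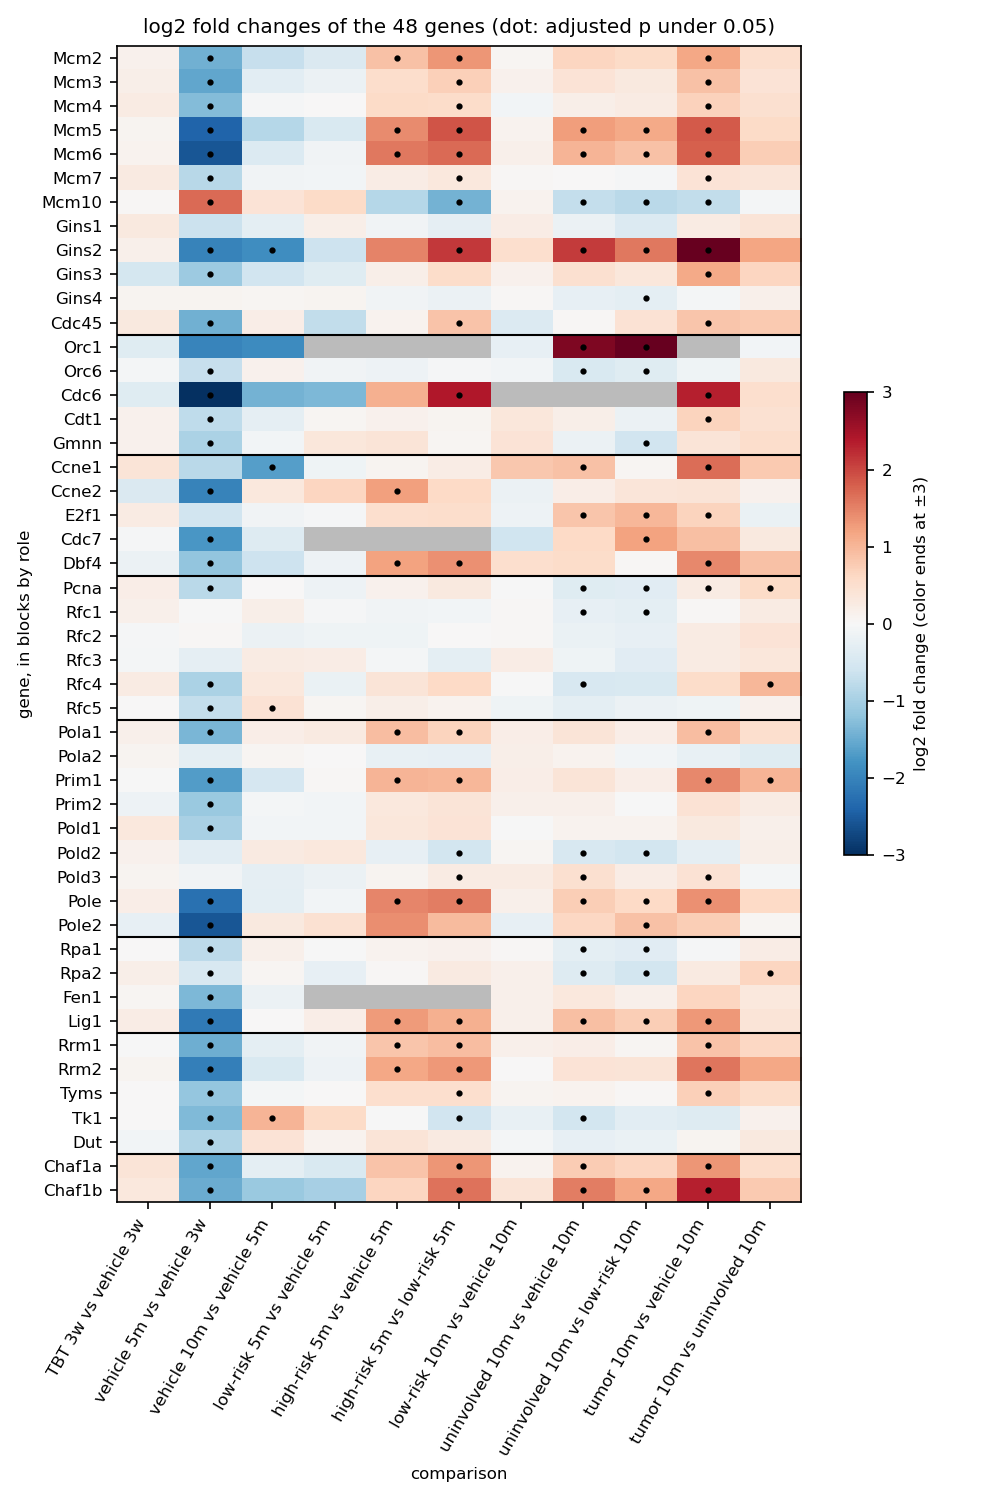
log2 fold changes of the 48 genes (rows, in blocks by role) in 11 comparisons (columns), in color from -3 to 3, with a dot where the adjusted p was under 0.05 and gray where a gene did not pass the filter. The column of 5-month against 3-week vehicles holds 36 lower calls and 1 higher call, and the columns of low-risk livers against vehicles and of 3-week TBT hold none.

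Against the 8 vehicles of 5 months, high-risk livers had 11 of 45 genes higher and 0 lower, beside 8.47% and 7.38% of all genes (edgeR quasi-likelihood). DESeq2 also gave 11 higher and 0 lower, and 16 of the 45 had an unadjusted p under 0.05. The called genes were Mcm2, Mcm5, Mcm6, Ccne2, Dbf4, Pola1, Prim1, Pole, Lig1, Rrm1 and Rrm2. Mcm6 had the largest change, 1.58 (SE 0.32, adjusted p 0.00124), with 3.09, 5.15 and 10.9 CPM as lowest, median and highest values in vehicles, and Rrm1 the smallest, 0.82 (SE 0.17, adjusted p 0.0018). Every called gene of the set overlapped between the groups, and the like share of all genes is not given here. The count depended on single vehicles, being 18 without vehicle 9 and 6 without vehicle 8, the only vehicle of batch 2. It was 18 without the batch covariate, 4 in a fit of these groups alone and 0 within batch 1 (3 against 7), where Mcm6 was 1.07. The shares of all genes under these settings are not given here.

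Low-risk livers and vehicles of 5 months differed in none of the 45 genes, beside 0% of all genes (edgeR), of which 934 had an unadjusted p under 0.05, and DESeq2 likewise called 0 of the set. An unadjusted p under 0.05 was reached by 2 genes, Chaf1b (-0.99) and Tk1 (0.56). At 10 months low-risk livers and vehicles (5 against 6) again differed in none of 47 genes by either tool, beside 0% of all genes (688 at an unadjusted p under 0.05), with 2 of the set at an unadjusted p under 0.05, Pold3 (0.25) and Ccne1 (0.80). Summed Mcm2 to Mcm7 was 38 ± 3.53 CPM in low-risk livers and 36.8 ± 5.21 in vehicles of 10 months (SD, n = 5 and 6).

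At 10 months, uninvolved liver of high-risk mice was compared with low-risk liver (5 against 5). The set moved in both directions: 10 of 47 genes (21.3%) were higher and 9 (19.1%) lower (edgeR quasi-likelihood, Benjamini-Hochberg), shares below those of all 16338 genes tested, 27.7% and 24.7%. The median of the set was 0.07, beside 0.05 over all genes. Higher were Mcm5, Mcm6 and Gins2 of the helicase, Orc1, the S phase entry genes E2f1 and Cdc7, the leading-strand polymerase genes Pole and Pole2, Lig1 and Chaf1b. Of these, Gins2, Orc1 and Cdc7 were not tested in a fit of low-risk livers and vehicles alone. They thus passed the filter on low counts through the uninvolved livers and could be called only as higher. Lower were Mcm10 and Gins4, the licensing genes Orc6 and Gmnn, the clamp genes Pcna and Rfc1, Pold2, and both single-strand binding genes, Rpa1 and Rpa2. None of the 5 nucleotide supply genes passed.

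Mcm6 had 4.42, 4.94, 5.19, 5.73 and 6.68 CPM in low-risk livers and 4.61, 7.05, 8.65, 8.68 and 20.6 in uninvolved livers, where the highest value is the summed sample of livers 3 and 6. The groups overlapped through uninvolved liver 7, and the log2 fold change was 0.88 (SE 0.29, adjusted p 0.0177). Orc1 (chromosome 4, 108579423 to 108614833) had 0, 0, 0.0309, 0.0398 and 0.171 CPM against 0.333, 0.392, 0.434, 0.486 and 0.55, with no overlap and the largest change, 3.05 (SE 0.77, adjusted p 0.00331). This rests on 0 to 5 reads in low-risk and 15 to 32 reads in uninvolved livers, where the depth was also greater. Vehicles had 0 to 7 reads, so Orc1 passed the filter on low counts only through the uninvolved livers. It could thus be called there only as higher. Chaf1b had 0.588, 0.915, 1.03, 1.15 and 1.21 CPM against 0.921, 1.57, 2.12, 2.38 and 3.84 and rose by 1.15 (SE 0.34, adjusted p 0.00874).

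Pcna had 20.4, 21.6, 21.7, 22.3 and 22.6 CPM in low-risk and 14.8, 16.8, 17.3, 18.2 and 19.1 in uninvolved livers, so the groups did not overlap, and it fell by 0.35 (SE 0.08, adjusted p 0.00157). Rfc1 fell without overlap as well, from 35.5 ± 0.808 to 29.2 ± 2.61 CPM (SD, n = 5 each), as did Orc6 (-0.37). The share of all genes without overlap is not given here, so for these genes and Orc1 it has no background beside it. Gmnn was 4.35 ± 1.11 against 2.94 ± 0.403 CPM (-0.58) and Rpa1 30.5 ± 3.2 against 24.4 ± 4.72 (-0.33). Mcm10 had 41.3, 51.9, 77.1, 87.5 and 93.9 CPM against 27.7, 31.4, 43.1, 47.2 and 53.7 and the lowest log2 fold change, -0.81 (SE 0.26, adjusted p 0.0163). The call of Mcm10 was lost without uninvolved liver 7.

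Against 10-month vehicles uninvolved liver had 11 of 47 genes (23.4%) higher and 9 (19.1%) lower, beside 31.2% and 26.5% of all genes. Orc1 (2.81, SE 0.71, adjusted p 0.00291) and Mcm10 (-0.71, SE 0.25, adjusted p 0.0241) were again at the ends. For Orc1 and Gins2, both higher, the same limit holds, as they passed the filter on low counts through the uninvolved livers. Mcm10 was 65.8 ± 21.3 CPM in vehicles, and its call was lost without vehicle 2, without uninvolved liver 7 or without livers 3 and 6. With the vehicle liver that carries a tumor label added to the vehicles, 3 higher and 2 lower calls were left. The share of all genes called under this setting is not given here.

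Counts in the surrounding lists for uninvolved against low-risk liver were 6 higher and 8 lower of 31 tested other replication genes (median log2 fold change -0.01); 2 higher and 10 lower of 25 tested other nucleotide genes (median log2 fold change -0.19); 11 higher and 4 lower of 29 tested cell cycle control genes (median log2 fold change 0.20); 15 higher and 0 lower of 16 tested mitosis genes (median log2 fold change 2.36). The cell cycle inhibitor gene Cdkn1a was the highest of the control genes (3.59) and E2f8 the lowest (-1.44). Stellate markers (5 of 7 higher, 1 lower) summed to 386 to 560.1 CPM against 238 to 324 in low-risk liver, and all 4 cholangiocyte markers were higher (21.8 to 35.3 against 7.03 to 9.95). Of 7 hepatocyte markers 3 were lower and of 6 macrophage markers 4 were lower and 1 higher (184 to 372 against 353 to 434 CPM). Their part in the result was not tested.

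**Figure D4:**
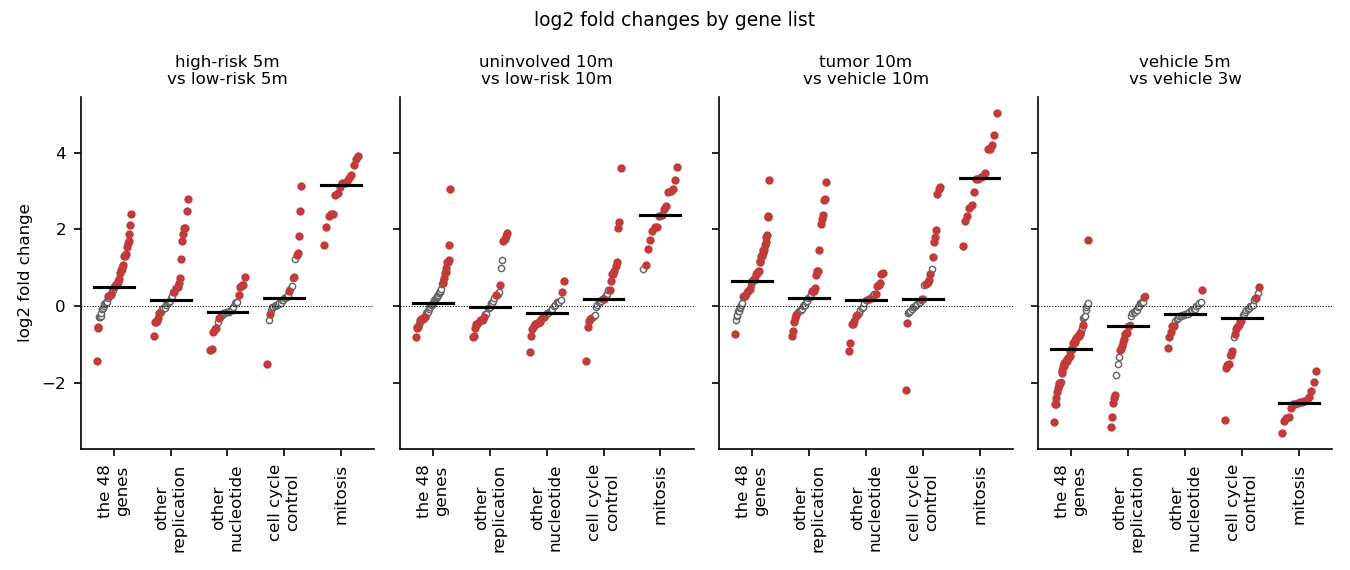
log2 fold changes (y axis) of the 48 genes and of 4 further lists (x axis) in 4 comparisons, with each gene as a point, filled red where its adjusted p was under 0.05, and the list median as a line. In high-risk against low-risk livers of 5 months the median of the 48 genes was 0.50 and that of the mitosis genes 3.16.

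Whether the risk difference itself changed with age was tested as an interaction. None of the 48 genes passed (edgeR quasi-likelihood), beside 0.448% of 16084 genes tested, although 8 had an unadjusted p under 0.05 and DESeq2 called 2 lower. The median of the set was -0.33, beside 0.03 over all genes. The smallest adjusted p was that of Rrm1 (-0.87, SE 0.22, adjusted p 0.0609), followed by Dbf4 (-1.33, SE 0.36, adjusted p 0.085). Batch 2 held 5-month livers only, so batch and age cannot be fully told apart.

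Tumors were compared with uninvolved liver (7 against 5) in a fit of these groups. Most tumors came from the same mice as the uninvolved livers. All 48 genes were tested and 4 (8.33%) were higher, with 0 lower by edgeR or DESeq2, beside 7.55% and 10.5% of all genes. The share was near that of all genes. The median was 0.42, beside -0.01 over all genes, and 18 genes had an unadjusted p under 0.05. Prim1, the primase subunit (chromosome 10, 128015168 to 128030037), had 1.53, 2.31, 3.06, 3.1 and 3.37 CPM in uninvolved liver and 2.48, 5.71 and 6.8 as lowest, median and highest values in tumors. Tumor 7 was the only tumor inside the range of uninvolved liver, and the log2 fold change was 1.02 (SE 0.24, adjusted p 0.0134). Rfc4, of the clamp loader (chromosome 16, 23113943 to 23127737), had 1.33, 1.44, 1.53, 1.76 and 1.86 CPM against 2.01, 2.99 and 4.8, without overlap (0.99, SE 0.22, adjusted p 0.0105). Pcna had 19.4, 25.9 and 30.7 CPM in tumors, above all uninvolved livers (0.58, SE 0.12, adjusted p 0.007). The share of all genes without overlap between tumors and uninvolved liver is not given here. Rpa2 was 4.07 ± 1.18 against 6.38 ± 1.33 CPM (0.64, SE 0.20, adjusted p 0.0394) and lost its call when any 1 of 9 samples was left out.

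Mcm6 was 9.93 ± 6.22 CPM in uninvolved liver and 16.8 ± 7.22 in tumors and did not pass (0.75, SE 0.39, adjusted p 0.197), nor did Mcm10 (-0.07). The liver and the tumor of mouse 7 stood lowest of their groups for 39 and 40 of the 48 genes, and the summed livers 3 and 6 and tumor 12 highest for 33 and 29. The count rested on single livers: it was 14 without the summed livers 3 and 6 and 13 without tumor 7. With the mouse as a block it was 4 over 6 mice, where livers 3 and 6 entered as separate samples. It was 16, all higher, over the 4 mice left without mice 3 and 6. The shares of all genes beside these counts are not given here. The 16 mitosis genes had a median of 1.10. Of these 0 passed by edgeR and 2 by DESeq2, with 5 at an unadjusted p under 0.05 (edgeR). In the other nucleotide list 5 of 25 were higher, led by Ctps, a CTP synthase gene (1.04).

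Tumors against 10-month vehicles (7 against 6) gave 25 of 47 genes (53.2%) higher and 1 (2.13%) lower, beside 24.8% and 21% of all 15293 genes tested. The median of the set was 0.66. By role 9 of 12 helicase genes, 2 of 4 tested licensing genes, 3 of 5 S phase entry genes, 1 of 6 clamp genes, 4 of 9 polymerase genes, 1 of 4 Okazaki genes, 3 of 5 nucleotide genes and both chromatin assembly genes rose.

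Gins2 (chromosome 8, 120578633 to 120589304) had 0.0423, 0.19 and 0.345 CPM as lowest, median and highest values in vehicles and 0.342, 2.07 and 2.96 in tumors, the largest change at 3.28 (SE 0.49, adjusted p 0.000105). This rests on 1 to 9 reads in vehicles and 8 to 87 reads in tumors. Gins2 thus passed the filter on low counts through the tumors, where it is high, and could be called only as higher. The groups met only at tumor 7. Chaf1b (chromosome 16, 93883901 to 93906115) had 0.388, 0.728 and 1.19 CPM against 1.11, 3.32 and 5.7 and rose by 2.34 (SE 0.35, adjusted p 0.000106), again with tumor 7 alone inside the vehicle range. Mcm6 had 3.64, 4.98 and 6.08 CPM against 5.08, 19.1 and 25.1 (1.79, SE 0.30, adjusted p 0.000289) and Rrm1 9.29, 12.2 and 13.6 against 9.78, 20.2 and 34 (0.86). Mcm10 had 40.9, 66.4 and 101 CPM against 29.6, 38.3 and 45.8 and was the single gene that fell, by 0.73 (SE 0.17, adjusted p 0.00332). Tk1 was 21.8 ± 7.26 against 16.6 ± 1.25 CPM and did not pass (-0.38).

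Counts in the surrounding lists were 14 higher and 5 lower of 32 tested other replication genes (median log2 fold change 0.22); 7 higher and 7 lower of 25 tested other nucleotide genes (median log2 fold change 0.15); 13 higher and 2 lower of 30 tested cell cycle control genes (median log2 fold change 0.18); 16 higher and 0 lower of 16 tested mitosis genes (median log2 fold change 3.34). Top2a (3.24) led the other replication genes and Ccnb1, cyclin B1, the mitosis genes (5.03), while E2f8 fell by 2.20. Hepatocyte markers (5 of 7 lower) summed to 66520 to 111000 CPM in tumors against 111700 to 136800 in vehicles, stellate markers (4 of 7 higher, 1 lower) to 338 to 616 against 166 to 312, and cholangiocyte markers (4 of 4 higher) to 19.1 to 28.5 against 6.52 to 12.2. Of 5 tested T and NK cell markers 4 were higher (3.97 to 12 against 2.27 to 3.85 CPM over 6 markers). Their part in the result was not tested. With the vehicle liver that carries a tumor label added to the vehicles, 18 of the set were higher and 1 lower, and the like share of all genes is not given here.

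Calls were then set side by side for comparisons whose groups share no samples. Of the 20 genes higher in high-risk than low-risk livers of 5 months, 19 (95%) were among the 36 genes lower in 5-month than 3-week vehicles, which is 52.8% of those 36, and Pold3 was the exception. Over all genes the shared calls were 740, 24.6% of 3005 and 40.2% of 1842. For comparison, 75% of the 48 genes were lower with age. The single age-raised gene, Mcm10, was among the 3 genes lower in high-risk livers. All 20 were also among the 25 genes higher in tumors than in vehicles (80% of those 25), where all genes shared 2459 calls, 81.8% of 3005 and 64.7% of 3800. With uninvolved against low-risk liver of 10 months 6 of the 20 were shared (30%), which is 60% of the 10 genes higher there, and all genes shared 72.1% of 3005 and 47.9% of 4520. Of the 20, Cdc6 and Gins2 could be called only as higher, and Gins2 is also among the 6.

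E2F letters were present in 8 of the 17 genes with a window that were higher in high-risk livers, in 0 of 3 that were lower, and in 5 of 16 without a call. In tumors against vehicles they were in 10 of 22 higher genes, in 0 of 1 lower gene and in 3 of 15 without a call. In 5-month against 3-week vehicles they were in 11 of 30 lower genes, in 0 of 1 higher gene and in 3 of 8 without a call. In the whole 300-base windows, Mcm5 and Mcm6, whose upstream parts are printed above, carried 2 and 3 matches. Both genes rose in high-risk livers and in tumors, and were lower in 5-month than 3-week vehicles.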

How the data were processed

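Gene counts of 75 libraries in 1 table were deposited by the authors. Trim Galore, HISAT2, featureCounts and mm10 are named in the submitters' processing notes, and the name of the deposited table records a ComBat-seq adjustment, whose settings and the strand setting of counting are not given in the sources used here. The values are whole-number counts per gene, already adjusted for batch by the authors according to that name.

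Counts were analysed with edgeR 4.0.16 in R 4.3.3 (TMM, filterByExpr, robust quasi-likelihood F test, Benjamini-Hochberg over all genes tested, threshold 0.05). DESeq2 1.42.0 was the alternative. Sequencing batch was a covariate at 5 months, and both edgeR and DESeq2 were checked on simulated data with 200 changed genes. A pair of libraries of vehicle mouse 3 at 3 weeks was summed. The 3 groups of 5 months entered 1 fit, as did the vehicle, low-risk and uninvolved livers of 10 months, and the vehicles of all ages in batch 1. CPM values are group means ± SD over samples. Positions are from GENCODE M21 (GRCm38) and promoters from RefSeq (GRCm38.p6).

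The 48 genes, the surrounding lists and the tests were chosen with earlier results of these data known. By the rule for named genes, the lead gene of each role and the called genes with the highest and lowest change in each comparison were described, and others are named to account for each role. Tumors and uninvolved livers with the same number came from the same mouse by their labels, and the correlation of their deviations from the group means ran from -0.379 to 0.697 over 6 pairs. Title numbers elsewhere give no shared litter or day, and p-values measure the spread between mice whose litters are not given. Intervals for single counts were not computed, and low levels rest on few reads.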

Additional observations from a re-analysis of the deposited data

Results flagged for a closer look

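In 80 checks of groups of 4 to 10 samples, 6 values, which fall on 3 samples, stood further from the rest of their group than a 95% limit allows, where chance gives about 1 in 20. Vehicle 7 of 3 weeks had the highest sum over the 48 genes at 780.2 CPM, against 599.6 in the next sample, and the highest sum of Mcm2 to Mcm7 at 189 CPM. The library labelled TBT 4 of 3 weeks, which goes against its sex label, had the highest sum of Mcm2 to Mcm7 at 352 CPM (next 191) and the highest Chaf1b at 14.8 CPM (next 6.76). Vehicle 9 of 5 months, the shallowest library, had the lowest sum over the 48 genes at 270.5 CPM (next 332) and the lowest Rpa1 at 13.1 CPM (next 24.4).

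The 10-month vehicle library labelled with a tumor entered no comparison. It had 11.5 M counts, 14.1% of them mitochondrial. Its sum of Mcm2 to Mcm7 was 57.6 CPM, above the highest of 6 vehicles at 43.5. Dbf4 was at 7.04 CPM (highest vehicle 3.26), Chaf1b at 1.41 (1.19), Pold3 at 10.9 (10.5) and Rrm1 at 13.8 (13.6). Of the 48 genes 22 lay above every 10-month vehicle, among them Mcm5, Mcm6, Gins2 and Rrm2, and 12 below every one, among them Mcm10, Pcna and Tk1. Of the genes tested in tumors against vehicles, 5356 of all 15293 (35%) lay above every vehicle and 6535 (42.7%) below, against 21 (44.7%) and 12 (25.5%) of the 47 of the set tested there. This is 1 library without a replicate.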

How the results depend on the processing

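No named gene that passed its test changed sign under the alternatives run. The median log2 fold change of the 48 genes changed sign in comparisons without a call: from 0.09 to -0.14 for TBT at 3 weeks without TBT 4, and from -0.07 for low-risk livers against vehicles at 5 months to 0.10 both without the batch covariate and with a replicate block over 5 shared numbers. It shrank from 0.50 to 0.25 for high-risk against low-risk livers within batch 1, and with the block from 0.38 to 0.07 for high-risk livers and from 0.66 to 0.41 for tumors, each against vehicles. The number of called genes moved by over 1.5 times in the cases that follow, for which the shares of all genes are not given here. High-risk against low-risk livers of 5 months gave 1 within batch 1. High-risk livers against vehicles gave 7 without a filter on low counts, 18 without the batch covariate, 4 in a fit of these groups alone, and 0 within batch 1 and with a replicate block over 3 shared numbers. Uninvolved liver against vehicles gave 5 with the vehicle library labelled with a tumor counted as vehicle. Tumors against uninvolved liver gave 8 with DESeq2, and with the mouse as a block 16 over 4 mice and 4 over 6 mice. Tumors against vehicles gave 13 with a replicate block over 4 shared numbers. Vehicles of 10 against 5 months gave 7 with DESeq2, 7 without the 6 libraries of unusual depth, gene number or mitochondrial share, and 2 with the library labelled with a tumor counted. The interaction gave 2 with DESeq2. In the other comparisons the block gave 0 for TBT at 3 weeks, 0 and 0 for low-risk livers against vehicles at 5 and 10 months, and 14 for uninvolved liver against vehicles. Outside tumors and uninvolved livers these pairs share only a number. The cause was not tested.

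Samples of all groups but the 16 low-risk livers of 5 months were left out 1 at a time, and the interaction was not refitted so. This gave 0 to 0 called genes for TBT at 3 weeks and for low-risk livers against vehicles at both ages. It gave 20 to 24 for high-risk against low-risk livers, 6 to 18 for high-risk livers against vehicles, 14 to 20 for uninvolved against low-risk liver and 16 to 21 against vehicles. It gave 3 to 14 for tumors against uninvolved liver, 22 to 33 against vehicles, 34 to 42 for vehicles of 5 months against 3 weeks and 3 to 7 for 10 against 5 months. Of the recomputed fold changes of named genes 344 kept their side of the threshold and 30 lost it.

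Depth limits Orc1, Cdc6, Cdc7, Gins2 and Fen1, which rest on few reads in the adult vehicle and low-risk livers.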

Other observations

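Mitosis genes were also described in the comparisons not yet listed for them. High-risk livers of 5 months had 13 of 16 mitosis genes higher than vehicles (median log2 fold change 1.97), uninvolved livers of 10 months had 16 of 16 higher than vehicles (2.19), and vehicles of 10 months had 6 of 16 lower than those of 5 months (-1.53). Mki67, the proliferation antigen, led the first of these (2.77) and Plk1, a mitotic kinase, the next (3.57). In the same comparisons E2f8 was lower in uninvolved liver than in vehicles (-1.43). No mitosis gene passed in low-risk livers against vehicles of 5 months, where all 16 were negative (median -0.99, 3 at an unadjusted p under 0.05). None passed either for TBT at 3 weeks (-0.10), for low-risk livers against vehicles of 10 months (-0.15) or in the interaction (-0.65).

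Samples that stood at an end of their group did so for many of the 48 genes together. In 3-week vehicles 1 sample, vehicle 7, was highest for 34 genes. In low-risk livers of 5 months no sample was highest for more than 7 genes, and liver 5 was lowest for 15. Promoter windows were not found for 9 of the 48 genes, Mcm4, Gins1, Gins2, Gins4, Gmnn, Ccne2, Rfc2, Prim2 and Pole.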
